A study of Mus musculus with 10 samples.

Results

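The genes described here are 45 genes of the endoplasmic reticulum (ER) that fold, translocate, glycosylate and degrade secretory proteins, together with the XBP1 branch of the unfolded protein response. They were picked by symbol according to their roles, with earlier results of these data known. All 45 were among the 17493 genes of the deposited table, and all 45 were among the 12535 genes with enough reads to be tested.

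Polyadenylated RNA was sequenced from mouse Th17 cells, helper T cells that secrete IL-17, that had received TMP269 (2 libraries) or DMSO (2 libraries). TMP269 is a small molecule that inhibits the class IIa histone deacetylases, the family of HDAC4 and HDAC7 that the study concerns. The 4 libraries share their source, naive CD4+ T cells of C57BL/6 spleen, activated on plate-bound antibodies to CD3 and CD28 with TGF-beta (2.5 ng/mL) and IL-6 (20 ng/mL) in cultures of 48 to 72 h, with TMP269 added before harvest. The titles name the controls DMSO, whereas the series text calls them untreated, and neither gives a dose or duration for TMP269.

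Secretory and membrane proteins enter the ER through the SEC61 channel, lose their signal peptide to signal peptidase and receive N-glycans from oligosaccharyltransferase. In the lumen, BiP and its partners, the disulfide isomerases and the lectin chaperones fold them, and proteins that fail to fold are returned to the cytosol and degraded. When unfolded proteins build up, the sensor IRE1 splices the XBP1 mRNA, and the resulting factor, with ATF6, raises transcription of many of these genes, while another sensor, PERK, slows translation and acts through ATF4. T cells that secrete cytokines depend on this machinery, as plasma cells do to a much greater degree.

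ATF6 and XBP1 are known to act through short promoter elements, of which the ER stress response element (ERSE) is the best known. A set of 3 such elements were searched for in the RefSeq promoter windows (GRCm38.p6, 250 bases before the annotated start to 50 after it, 300 in all), on both strands. ERSE was taken as CCAAT, then any 9 bases, then CCACG, ERSE-II as ATTGG, any base, then CCACG, and the XBP1 element UPRE as TGACGTGG. A window was found for 39 of the 45 members; Hyou1, Manf, Derl1, Sec61a1, Ssr2 and Spcs3 had none in the table.

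ERSE was present in 9 of these 39 members (23.1%), against 0.137% of all 27025 genes with a window and 0 of 77 other genes of the pathway with one. The members were picked by role, with genes of the stress response among them, so a high share was likely beforehand. The shares are a description and were not tested. The 9 were Hspa5, Hsp90b1, Dnajc3, Creld2, Pdia6, Calr, Canx, Syvn1 and Derl3. ERSE-II was present in 2 members, Dnajb11 and Herpud1, against 0.0444% of all genes, and UPRE in 1 member, Txndc5 (2.56%), against 0.714%. Among the 77 other pathway genes with a window, ERSE-II was present in 1 (Krtcap2) and UPRE in 5 (6.49%). No member held 2 kinds of element. Hsp90b1 held ERSE at -212 to -194 and again at -107 to -89, and these matches did not overlap. The ERSE matches began or ended between positions -212 and -26 relative to the start, and the match in Dnajb11 lay after it, at 7 to 17. Matches upstream of the start are printed here because elements of these letters are the ones through which the stress factors are known to act. Each is written 5′ to 3′ on the strand of its gene, with the fixed letters of the element in capitals. Where the capitals read CGTGG and then ATTGG, the element lies on the opposite strand.

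Hspa5 (GRCm38.p6 chr2:34772013-34772055, + strand): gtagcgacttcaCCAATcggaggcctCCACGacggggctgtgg
Hsp90b1, far match (chr10:86705626-86705668, - strand): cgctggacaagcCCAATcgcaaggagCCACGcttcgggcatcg
Hsp90b1, near match (chr10:86705521-86705563, - strand): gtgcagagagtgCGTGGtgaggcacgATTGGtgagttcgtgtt
Dnajc3 (chr14:118937815-118937857, + strand): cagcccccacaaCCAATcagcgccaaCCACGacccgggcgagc
Creld2 (chr15:88819508-88819550, + strand): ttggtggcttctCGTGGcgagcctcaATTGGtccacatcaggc
Pdia6 (chr12:17266479-17266521, + strand): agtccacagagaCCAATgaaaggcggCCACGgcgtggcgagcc
Calr (chr8:84847063-84847105, - strand): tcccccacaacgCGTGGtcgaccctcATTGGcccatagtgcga
Canx (chr11:50325788-50325830, - strand): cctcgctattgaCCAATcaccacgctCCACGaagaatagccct
Syvn1 (chr19:6046520-6046562, + strand): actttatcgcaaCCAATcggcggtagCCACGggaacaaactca
Derl3 (chr10:75893230-75893272, + strand): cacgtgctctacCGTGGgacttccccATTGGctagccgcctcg
Herpud1, ERSE-II (chr8:94386365-94386399, + strand): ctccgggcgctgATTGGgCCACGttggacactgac
Txndc5, UPRE (chr13:38528033-38528064, - strand): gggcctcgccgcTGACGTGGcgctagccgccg

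The changes of the members with and without these elements are set side by side here, and the difference between them was not tested. Over all tested genes, 14.7% were called lower with TMP269 and 12.8% higher (limma adjusted p under 0.05). Of the 11 members with ERSE or ERSE-II, 4 fell, 1 rose and 6 were not called (median log2 fold change -0.25). Of the 28 with a window and neither element, 14 fell, 0 rose and 14 were not called (median -0.26). The elements are in the windows by their letters, and no binding was measured here.

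**Figure D1:**
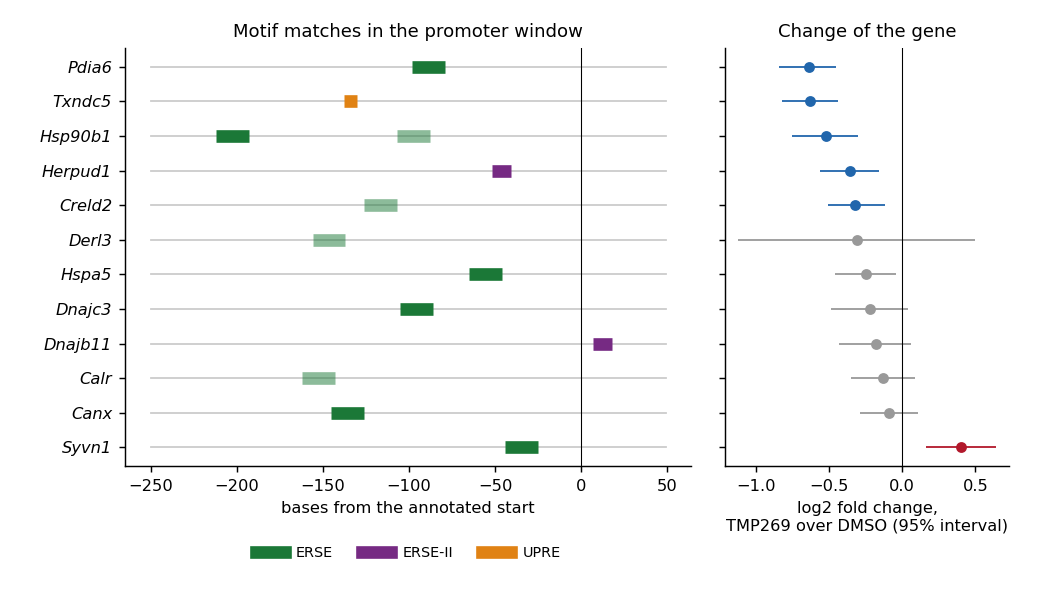
Left, position of each element (ERSE green, ERSE-II purple, UPRE orange, pale where on the opposite strand) relative to the annotated start in the 12 members that hold one. Right, log2 fold change of the same gene, TMP269 over DMSO, with its 95% interval (blue called lower, red called higher, grey not called). Genes with ERSE span log2 fold changes of -0.64 for Pdia6 to 0.40 for Syvn1.

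More members fell than rose in cells with TMP269, and by modest amounts. Of the 45 members, 23 were lower with TMP269 at an adjusted p under 0.05 in limma, against a background of 14.7% of all tested genes, and 1 was higher, against a background of 12.8%. The changes of the 23 lower members lay between -16.9% and -38.4%, 3 falls reached 1.5-fold (Sdf2l1, Pdia6 and Txndc5), and 0 members changed 2-fold. The median log2 fold change was -0.31 over the members and 0.00 over all tested genes. Values are normalised reads, each library's read counts divided by its size factor, and every fold change was taken on log2(value + 1). In these bulk libraries, fewer cells of a type and less RNA per cell cannot be told apart.

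Both TMP269 libraries lay below both DMSO libraries in 28 of the 45 members, against 34.0% of all tested genes, and above both in 4, against 32.6%. In the other 13 members the groups overlapped. Reads of the 45 members made up 0.958% and 0.977% of TMP269 replicates 1 and 2, against 1.07% and 1.11% of DMSO replicates 1 and 2. Of the 23 falls, 11 were called in all 14 alternatives run, namely Hsp90b1, Sdf2l1, Manf, Pdia4, Pdia6, P4hb, Txndc5, Xbp1, Edem2, Sec61b and Dad1.

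The libraries of a group differed among themselves. DMSO replicate 2 held the highest of the 4 values in 33 of the 45 members, against 32.6% of all tested genes, and TMP269 replicate 1 held the lowest in 31, against 27.3%. DMSO replicate 2 also had the largest share of reads from the ribosomal RNA gene Rn45s, 2.20%, while the other libraries had 0.716% to 1.12%. Without TMP269 replicate 1, 13 members were called lower (28.9%, against 9.09% of all tested genes) and 0 higher. Without DMSO replicate 2, 14 were called lower (31.1%, against 8.10%) and 0 higher. The median log2 fold change of the members was -0.22 in either case. With equal library totals in place of the authors' size factors, the median of all tested genes moved up by 0.10 and that of the members was -0.21. A change of scaling moves all genes by about the same amount. The gap of 0.31 between the 2 medians was therefore bound to stay and is no check on the scaling. Higher genes made up 46.5% of all calls with the size factors and 67.3% with equal totals. With equal totals 17 members were called lower, against 8.31% of all tested genes, and 2 higher (Syvn1 and Derl1), against 17.1%.

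**Figure D2:**
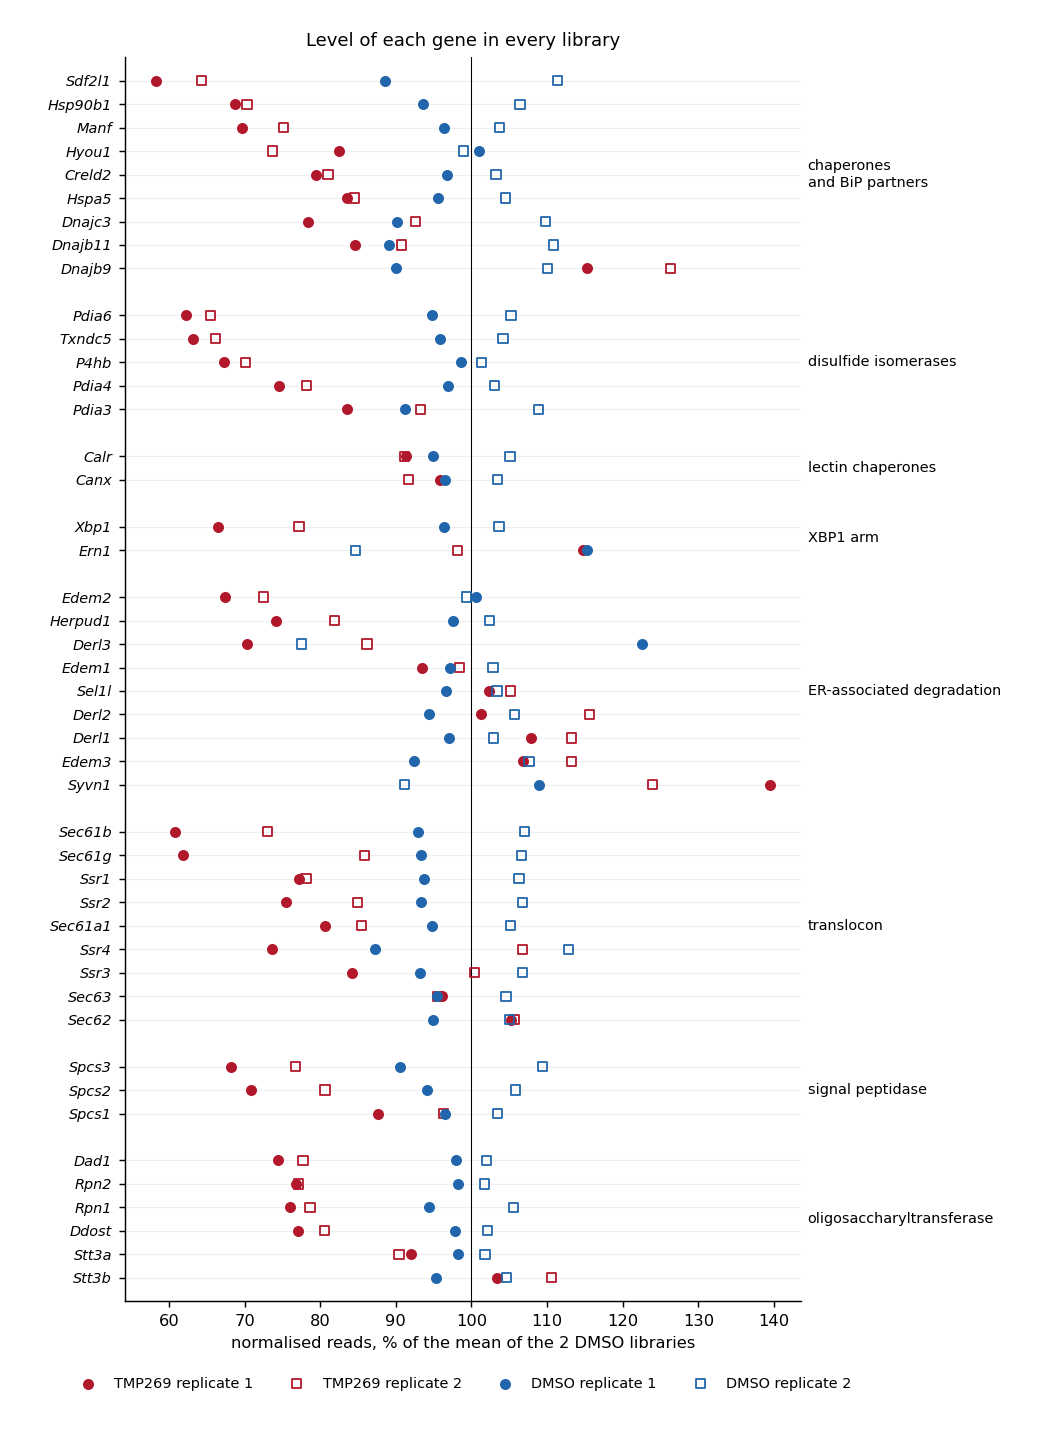
Normalised reads of each member in every library, as a percentage of the mean of the 2 DMSO libraries (x axis), by role. Filled circles are replicate 1 and open squares replicate 2, with TMP269 in red and DMSO in blue. The red symbols of the isomerases Pdia6, Txndc5, P4hb and Pdia4 lie left of all blue symbols, while those of most ER-associated degradation genes overlap the blue ones or lie to their right.

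The library totals were 20837231 and 23259102 reads for TMP269 replicates 1 and 2, and 25321455 and 20007042 for DMSO replicates 1 and 2. The labelled cell type was checked with its markers: Cd3e, a subunit of the T cell receptor complex, had 4428 and 4776 normalised reads with TMP269, against 4097 and 4821 with DMSO, and Il17a had 750 and 786, against 1888 and 1949. Of the 10 tested T cell and Th17 markers, 2 were called higher with TMP269 (20.0%, against 12.8% of all tested genes) and 3 lower (30.0%, against 14.7%). Cd5 (log2 fold change 0.58) and the cytokine gene Il21 (0.45) were higher, and Ccr6, which encodes a chemokine receptor (-1.17), Il17a (-1.32) and Il17f (-1.06) were lower. B and plasma cell markers, which matter here because plasma cells are rich in ER machinery, were also present and lower with TMP269. Of 15 tested markers 10 were called lower (66.7%, against 14.7% of all tested genes) and 0 higher (against 12.8%). The 16 listed genes summed to 3439 and 3452 normalised reads with TMP269, against 6154 and 6367 with DMSO, which is 0.0156% to 0.0160% and 0.0264% to 0.0270% of reads. Mzb1, an ER protein of B lineage cells that partners BiP and GRP94, had 134 and 134 with TMP269, against 220 and 236 with DMSO. Mzb1 was on the list of markers but was named here after its values were seen. The plasma cell markers Sdc1 and Prdm1 were not called (log2 fold change -0.07 and 0.00), and Tnfrsf17 had 0 reads in 3 libraries and 1.21 normalised reads in DMSO replicate 2. The part of these cells in the results below was not tested. Of 7 tested myeloid and dendritic markers 1 was higher (14.3%, against 12.8% of all tested genes) and 1 lower (14.3%, against 14.7%). Cd68 had 263 and 299 normalised reads with TMP269, against 97.2 and 83.2 with DMSO (log2 fold change 1.63). Flt3 had 69.3 and 57.9, against 214 and 303 (-1.99). The list summed to 1895 and 2090 with TMP269, against 1988 and 2219 with DMSO. Most of these sums came from Cst3 (1409 and 1537, against 1532 and 1696), which was not called. Of the NK and CD8 markers, 0 of 3 were called.

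Among the chaperones, GRP94 and several partners of BiP fell, while BiP itself did not pass in the reported fit. Of 9 members, 5 fell (55.6%, against 14.7% of all tested genes), 0 rose (against 12.8%) and 4 were not called. Hsp90b1, which encodes GRP94, the HSP90 of the ER, had 15296 and 15642 normalised reads with TMP269, against 20818 and 23668 with DMSO. The groups did not overlap, and the log2 fold change was -0.52 ± 0.10 (SE, limma adjusted p = 0.00615). Sdf2l1, a partner of BiP that works with the co-chaperone ERdj3, had 1301 and 1437 with TMP269, against 1979 and 2489 with DMSO. It had the largest fall of the 45 members, -0.70 ± 0.11 (limma adjusted p = 0.00356). Manf, a small secreted ER stress protein that binds BiP, had 3240 and 3494, against 4481 and 4822 (-0.47 ± 0.08, limma adjusted p = 0.00456).

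Hyou1, the large HSP70-like exchange factor of BiP, had 4795 and 4288 with TMP269, against 5876 and 5754 with DMSO (-0.36 ± 0.08, limma adjusted p = 0.0144). Creld2, an ER stress-induced protein, had 880 and 897, against 1071 and 1143 (-0.32 ± 0.09, limma adjusted p = 0.0273). Both genes were lower in every TMP269 library than in any DMSO library. Leaving out TMP269 replicate 2 ended the Hyou1 call (limma adjusted p = 0.127), as did equal totals (0.074). The Creld2 call was lost without any library other than DMSO replicate 1 (0.078 to 0.133), with equal totals (0.0879) and in DESeq2 (0.062). Falls in this group numbered 3 without TMP269 replicate 2 and 3 with equal totals.

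Hspa5, which encodes BiP, the HSP70 chaperone of the ER and its main stress target, had 16228 and 16408 with TMP269, against 18541 and 20281 with DMSO. Although the groups did not overlap, it was not called (limma adjusted p = 0.0771, and 0.036 in DESeq2). The log2 fold change was -0.25, with a 95% interval of -0.46 to -0.04 before adjustment. With the replicate number as a block, Hspa5 was called lower (limma adjusted p = 0.00253), as were 26.7% of all tested genes. Dnajb11 (the co-chaperone ERdj3) had 2712 and 2907 with TMP269 and 2854 and 3552 with DMSO, and Dnajc3, another co-chaperone of BiP, had 2175 and 2567 with TMP269 and 2500 and 3045 with DMSO. The groups overlapped in both genes, and neither was called, at -0.18 (95% interval -0.43 to 0.06) and -0.22 (-0.49 to 0.04). Both were called lower without DMSO replicate 1 (limma adjusted p = 0.0264 and 0.0344). Dnajb9 (ERdj4), a co-chaperone that recruits BiP to IRE1 and restrains it, was the only chaperone with a positive value. It had 305 and 334 with TMP269, against 238 and 291 with DMSO, and was not called (0.28 ± 0.14, limma adjusted p = 0.176).

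The protein disulfide isomerases, which form and rearrange disulfide bonds in the ER, fell in 4 of 5 cases. Pdia6 had 5647 and 5940 normalised reads with TMP269, against 8588 and 9537 with DMSO (log2 fold change -0.64 ± 0.09, limma adjusted p = 0.0015). Txndc5, a thioredoxin-domain isomerase, had 1394 and 1460, against 2116 and 2300 (-0.63 ± 0.08, limma adjusted p = 0.00144). P4hb, the classical isomerase and a subunit of prolyl 4-hydroxylase, had 12332 and 12840, against 18065 and 18558 (-0.54 ± 0.09, limma adjusted p = 0.00314). For all 3 the gap between groups was larger than the gap within either group. Pdia4 was at 3110 and 3261, against 4041 and 4296 (-0.39 ± 0.08, limma adjusted p = 0.0079). These 4 calls held without any 1 library. Pdia3 (ERp57), the isomerase that works with the lectin chaperones on glycoproteins, was at 12093 and 13504 with TMP269 and at 13203 and 15755 with DMSO, so its groups overlapped (-0.17, 95% interval -0.42 to 0.07, limma adjusted p = 0.263).

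The 2 lectin chaperones that hold glycoproteins during folding were not called. Calr (calreticulin) had 19065 and 19017 with TMP269, against 19800 and 21930 with DMSO (-0.13, 95% interval -0.35 to 0.09). Canx (calnexin), its membrane-bound relative, had 14128 and 13512, against 14220 and 15246 (-0.09, 95% interval -0.29 to 0.11). Their values with TMP269 were below those with DMSO in every library, by margins smaller than the gap between the 2 DMSO libraries.

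**Figure D3:**
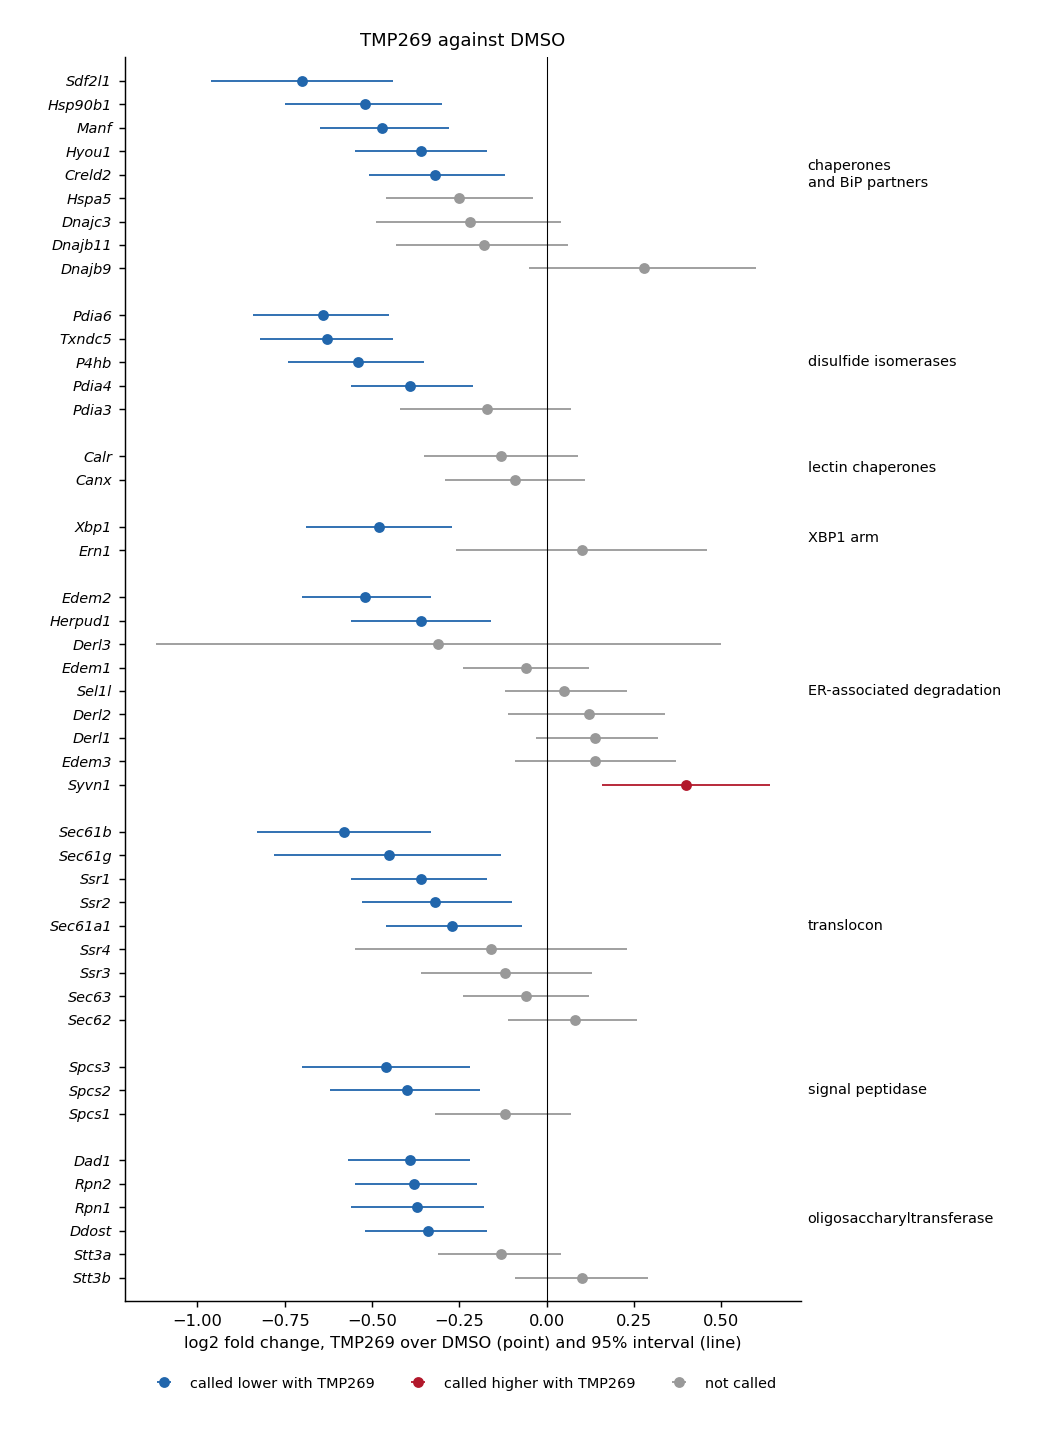
Log2 fold change of each of the 45 members, TMP269 over DMSO (points), with 95% intervals from limma before adjustment (lines), by role. The 23 members called lower are blue, the 1 called higher, Syvn1, is red and the 21 not called are grey.

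In the XBP1 branch the factor fell and the sensor did not pass. Xbp1 had 2293 and 2660 normalised reads with TMP269, against 3320 and 3571 with DMSO, with no overlap (-0.48 ± 0.09, limma adjusted p = 0.00682), and the call held without any 1 library. Counts per gene do not separate the spliced mRNA, which encodes the active factor, from the unspliced one. Ern1, which encodes IRE1, had 462 and 395 with TMP269 and 464 and 341 with DMSO (0.10, 95% interval -0.26 to 0.46, limma adjusted p = 0.666), and its groups overlapped.

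The genes of ER-associated degradation were called at about the rate of all genes. Of 9 members, 2 fell (22.2%, against 14.7% of all tested genes), 1 rose (11.1%, against 12.8%) and 6 were not called, and the median log2 fold change was 0.05. Edem2, a mannosidase-like protein that starts the trimming of misfolded glycoproteins, had 1425 and 1533 with TMP269, against 2128 and 2102 with DMSO (-0.52 ± 0.08, limma adjusted p = 0.00278). Herpud1, a stress-induced scaffold of the degradation complex, had 1043 and 1153, against 1373 and 1441 (-0.36 ± 0.09, limma adjusted p = 0.018). Syvn1, which encodes HRD1, the ubiquitin ligase at the centre of the same complex, was the member that rose. It had 1915 and 1702 with TMP269, against 1495 and 1251 with DMSO (0.40 ± 0.11, limma adjusted p = 0.0239). Without TMP269 replicate 1 or DMSO replicate 2, Syvn1 was no longer called (limma adjusted p = 0.0921 and 0.12). That of Herpud1 was lost without the same libraries (0.128 and 0.0773) and with equal totals (0.0552).

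Sel1l, the adaptor that stabilises HRD1, was at 2221 and 2281 with TMP269 and 2096 and 2243 with DMSO, and its groups overlapped (0.05, 95% interval -0.12 to 0.23). The other mannosidase-like genes, Edem1 (-0.06) and Edem3 (0.14), were not called. Nor were Derl1 (0.14) and Derl2 (0.12), membrane proteins through which substrates leave the ER. Derl1 lay above DMSO in both TMP269 libraries, with 2987 and 3136 against 2690 and 2851, and was called higher with equal totals (limma adjusted p = 0.0351). Derl3, the derlin known from secretory cells, had at most 32.4 normalised reads in any library, and its interval (-1.12 to 0.50) was too wide to place it. A further 17 degradation genes that are not members held 1 fall and 2 rises. Over the 26 genes together 3 fell and 3 rose, with a median of 0.04, which is near the same background. With equal totals, where 8.31% of all tested genes were called lower and 17.1% higher, 1 member fell and 2 rose, and 0 of the 17 fell and 5 rose. Among the 17, Ubxn4, an ER membrane recruiter of the extracting ATPase p97, rose by 0.29 ± 0.08 (limma adjusted p = 0.0236) and Herpud2 by 0.33 ± 0.09 (0.0295). Vimp, a selenoprotein partner of the derlins, fell by 0.34 on the log2 scale (limma adjusted p = 0.0347). The Herpud2 call was lost without any 1 library other than TMP269 replicate 1 (0.0677 to 0.194), and the Ubxn4 call without any 1 library other than DMSO replicate 2 (0.0735 to 0.128). That of Vimp was lost without TMP269 replicate 1 (0.176) or DMSO replicate 2 (0.182), with equal totals (0.0868) and in DESeq2 (0.0559).

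At the entry to the ER, the 3 subunits of the SEC61 channel fell. Of the 9 translocon members, 5 were called lower (55.6%, against 14.7% of all tested genes) and 0 higher (against 12.8%). Sec61b, which encodes its small beta subunit, had 1443 and 1733 with TMP269, against 2206 and 2540 with DMSO (-0.58 ± 0.11, limma adjusted p = 0.00595), and this call held without any 1 library. Sec61g, the gamma subunit, had 1537 and 2135, against 2321 and 2652 (-0.45 ± 0.14, limma adjusted p = 0.0445). Sec61a1, the pore itself, had 6880 and 7294, against 8095 and 8974 (-0.27 ± 0.09, limma adjusted p = 0.0493). The Sec61g and Sec61a1 calls lay close to the threshold. Both were lost in edgeR (0.0603 for Sec61g and 0.0554 for Sec61a1), with equal totals (0.101 and 0.126), with TMM factors (0.0546 and 0.0516), with all detected genes tested (0.0653 and 0.0698), without TMP269 replicate 1 (0.261 and 0.29) and without DMSO replicate 2 (0.148 and 0.223). That of Sec61a1 was also lost without TMP269 replicate 2 (0.107).

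Of the translocon-associated TRAP complex, Ssr1 and Ssr2 fell and Ssr3 and Ssr4 were not called. Ssr1 had 5306 and 5366 with TMP269, against 6437 and 7301 with DMSO (-0.36 ± 0.09, limma adjusted p = 0.0158), and Ssr2 had 2245 and 2525, against 2773 and 3173 (-0.32 ± 0.10, limma adjusted p = 0.0386). Ssr4 had 1755 and 2543 with TMP269 and 2078 and 2688 with DMSO. In both groups replicate 2 was higher by a margin larger than the difference between the groups (-0.16, 95% interval -0.55 to 0.23), and Ssr4 was called lower without TMP269 replicate 2 (limma adjusted p = 0.0175). Ssr3 was at -0.12 (-0.36 to 0.13). The auxiliary subunits Sec62 and Sec63, which serve translocation after translation, were at 0.08 (-0.11 to 0.26) and -0.06 (-0.24 to 0.12). Ssr1 and Ssr2 were not called without TMP269 replicate 1 (limma adjusted p = 0.0603 and 0.223) or DMSO replicate 2 (0.0809 and 0.188), and the call of Ssr2 was also lost with equal totals (0.0937) and with all detected genes tested (0.0556). Without either of those libraries Sec61b was the 1 translocon member called lower.

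Of the 3 accessory subunits of signal peptidase, which cuts signal peptides from nascent chains, 2 fell (66.7%, against 14.7% of all tested genes). Spcs3 had 4196 and 4716 normalised reads with TMP269, against 5569 and 6729 with DMSO (-0.46 ± 0.11, limma adjusted p = 0.0138). Spcs2 had 3622 and 4118, against 4808 and 5406 (-0.40 ± 0.09, limma adjusted p = 0.0151). Spcs1 was at 1612 and 1770, against 1775 and 1902, and was not called (-0.12, 95% interval -0.32 to 0.07). Without TMP269 replicate 1 Spcs2 was not called (limma adjusted p = 0.0959), and both calls were lost without DMSO replicate 2 (0.0672 for Spcs2 and 0.0585 for Spcs3). The catalytic subunits Sec11a and Sec11c, named here after their values were seen, were not called. Sec11a was at -0.22 (limma adjusted p = 0.0889) and Sec11c at -0.09 (0.473), and Sec11a was called lower without DMSO replicate 1 (0.046).

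Oligosaccharyltransferase, which transfers glycans to nascent proteins, was lower in 4 of its 6 member genes (66.7%, against 14.7% of all tested genes). All 4 encode non-catalytic subunits. Dad1 had 2471 and 2581 with TMP269, against 3254 and 3387 with DMSO (-0.39 ± 0.08, limma adjusted p = 0.00675). Rpn2, a ribophorin, had 6468 and 6503, against 8280 and 8576 (-0.38 ± 0.08, limma adjusted p = 0.00853), and Rpn1, the other ribophorin, had 4558 and 4718, against 5665 and 6331 (-0.37 ± 0.08, limma adjusted p = 0.0132). Ddost had 3593 and 3754, against 4561 and 4763 (-0.34 ± 0.08, limma adjusted p = 0.0119). The 4 falls lay within 0.05 of each other on the log2 scale. The catalytic subunits were not called. Stt3a, which acts at the translocon during translation, had 6186 and 6077 with TMP269, against 6600 and 6840 with DMSO (-0.13, 95% interval -0.31 to 0.04). Stt3b, which acts on sites that were skipped, had 6288 and 6725 with TMP269 and 5798 and 6360 with DMSO, and its groups overlapped (0.10, -0.09 to 0.29). The difference between catalytic and other subunits was not tested. Without TMP269 replicate 1, Rpn1, Rpn2 and Ddost were not called (limma adjusted p = 0.0625, 0.0503 and 0.0844), and neither was Rpn1 without DMSO replicate 2 (0.0655), while Dad1 was called without any 1 library.

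The glycan processing list held 6 further genes of the same enzyme. Of these Ostc, which links the enzyme to the translocon, fell by 0.48 on the log2 scale (1823 and 2008 with TMP269, against 2507 and 2839, limma adjusted p = 0.00651). The others were named after their values were seen. Krtcap2, Tmem258, Ost4 and Magt1 fell by 0.47, 0.44, 0.41 and 0.25 on the log2 scale (limma adjusted p = 0.0138, 0.0126, 0.015 and 0.043), and Tusc3 was not called (0.00, limma adjusted p = 0.985). Over the 12 genes of the enzyme in both lists 9 fell and 0 rose, where 14.7% and 12.8% of all tested genes did. The calls of Tmem258, Ost4 and Magt1 were lost without TMP269 replicate 1 (0.0825, 0.0929 and 0.121), and those of Krtcap2, Ost4 and Magt1 without DMSO replicate 2 (0.0606, 0.0671 and 0.18). Magt1 was also lost without TMP269 replicate 2 (0.225), with equal totals (0.173), with all detected genes tested (0.0596), in edgeR (0.0504) and in DESeq2 (0.0768).

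**Figure D4:**
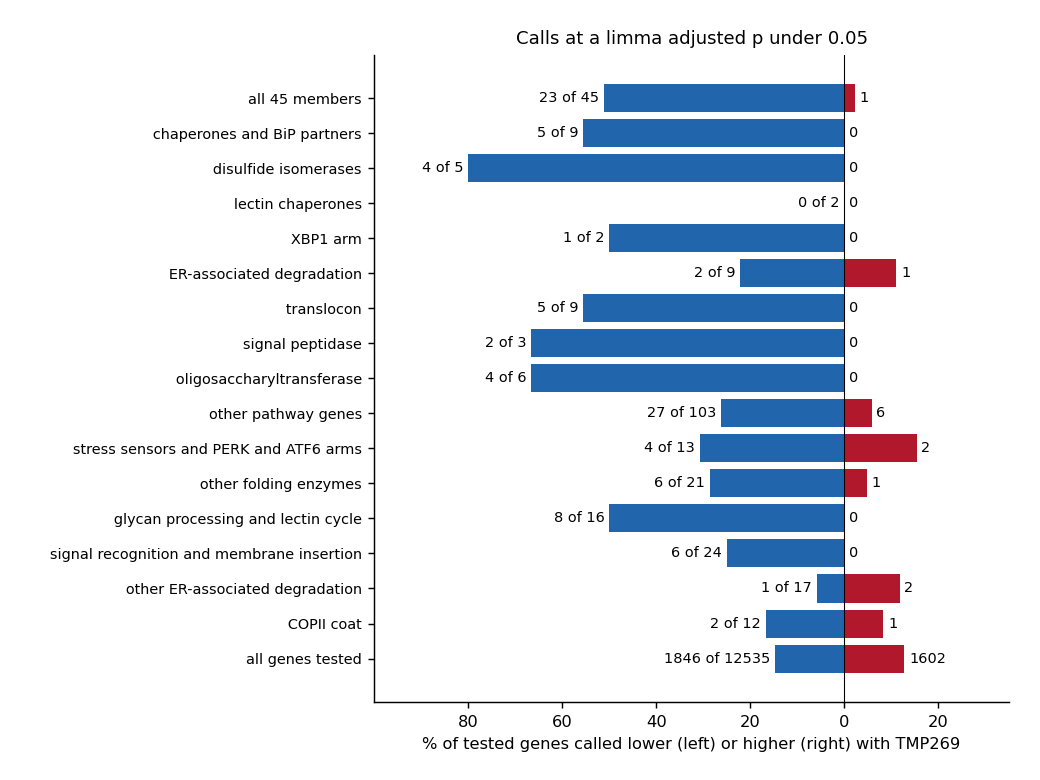
Percentage of the tested genes of each role and list called lower (left, blue) or higher (right, red) with TMP269 at a limma adjusted p under 0.05, with counts beside the bars. The members as a whole (23 of 45 lower) and the isomerases (4 of 5) stand to the left of all tested genes (14.7% lower), and the degradation genes held both directions.

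Among genes of the same pathway that are not members, falls also outnumbered rises. Of 103 such genes with values, 27 were called lower (26.2%) and 6 higher (5.83%), with a median log2 fold change of -0.13. Without TMP269 replicate 1 the counts were 12 and 4, against 9.09% and 9.16% of all tested genes. Without DMSO replicate 2 they were 9 and 3, against 8.10% and 8.48%, so the share of falls was then near the background. With equal totals 14 were called lower and 15 higher, against 8.31% and 17.1%. In glycan processing and the lectin cycle 8 of 16 fell and 0 rose, in other folding enzymes 6 of 21 fell and 1 rose, and in signal recognition and membrane insertion 6 of 24 fell and 0 rose. The coat of vesicles that leave the ER held 2 falls (16.7%) and 1 rise (8.33%) among 12 genes, near the shares of all tested genes. In signal recognition the falls numbered 2 in DESeq2, against 12.1% of all tested genes, and 2 with equal totals, against 8.31%. Without DMSO replicate 2 the falls were 3, 2, 1 and 1 in these 4 lists, and without TMP269 replicate 1 they were 3 in glycan processing, 2 in signal recognition and 1 in the coat, where it was also 1 without TMP269 replicate 2.

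Ero1l, the oxidase that recharges the disulfide isomerases, had 6403 and 6346 normalised reads with TMP269, against 11064 and 10610 with DMSO (-0.77 ± 0.08, limma adjusted p = 5.13e-04), a larger fall than that of any member. Fkbp2, a prolyl isomerase of the ER, had 574 and 546, against 917 and 868 (-0.67 ± 0.09, limma adjusted p = 0.00188). Sdf2, the paralogue of Sdf2l1, rose where Sdf2l1 fell. It had 1091 and 1103 with TMP269, against 865 and 802 with DMSO (0.40 ± 0.09, limma adjusted p = 0.0121, but 0.0592 without DMSO replicate 2). Lman1, a lectin that carries glycoproteins out of the ER, fell to 1765 in both TMP269 libraries, against 2348 and 2567 in DMSO libraries (-0.48 ± 0.08, limma adjusted p = 0.00403).

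Emc8, a subunit of the membrane insertase EMC, fell by 0.42 on the log2 scale (limma adjusted p = 0.00871), and Srp9, a subunit of the signal recognition particle, by 0.40 (0.0156). The Srp9 call was lost without TMP269 replicate 1 (0.0824) or DMSO replicate 2 (0.0752). In the vesicle coat, the cargo adaptor Sec24d fell to 431 and 439 with TMP269, against 675 and 628 with DMSO (-0.58 ± 0.10, limma adjusted p = 0.00463), while its paralogue Sec24a rose to 1795 and 1746, against 1423 and 1400 (0.33 ± 0.08, limma adjusted p = 0.0158). Sec13, a structural coat subunit, fell by 0.28 on the log2 scale (limma adjusted p = 0.0328). The Sec24a call was lost without TMP269 replicate 1 (0.0938) or DMSO replicate 2 (0.0592), and that of Sec13 without any library other than DMSO replicate 1 (0.0853 to 0.169) and with equal totals (0.12).

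The sensors and the other branches of the stress response held falls and rises. Of 13 genes, 4 fell (30.8%, against 14.7% of all tested genes), 2 rose (15.4%, against 12.8%) and 7 were not called. Eif2ak3, which encodes the sensor PERK, had 1448 and 1417 normalised reads with TMP269, against 1060 and 969 with DMSO (0.50 ± 0.09, limma adjusted p = 0.00439). Ddit3, which encodes the stress factor CHOP, had 637 and 758, against 419 and 362 (0.83 ± 0.13, limma adjusted p = 0.00254). Chac1, a glutathione-degrading enzyme induced by ATF4, had 76.5 and 96.9, against 156 and 159 (-0.86 ± 0.19, limma adjusted p = 0.0106). Trib3, a pseudokinase induced by ATF4 and CHOP, had 390 and 501, against 629 and 607 (-0.48 ± 0.13, limma adjusted p = 0.0272). In every library with TMP269, Ddit3 lay above both DMSO libraries, and Chac1 and Trib3 below both. Atf4 and Atf6 were named after their values were seen. Atf4 was called lower (-0.30 ± 0.09, limma adjusted p = 0.0325), and Atf6 was not called (-0.12, 95% interval -0.35 to 0.12). The Trib3 call was lost without any library other than TMP269 replicate 2 (0.0588 to 0.186) and with equal totals (0.0764), and that of Atf4 without TMP269 replicate 1 (0.294) or DMSO replicate 2 (0.108) and with equal totals (0.0975). Falls in this list numbered 1 without TMP269 replicate 1 and 2 without DMSO replicate 2, and with equal totals 1 fell and 4 rose, where 8.31% and 17.1% of all tested genes did.

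**Figure D5:**
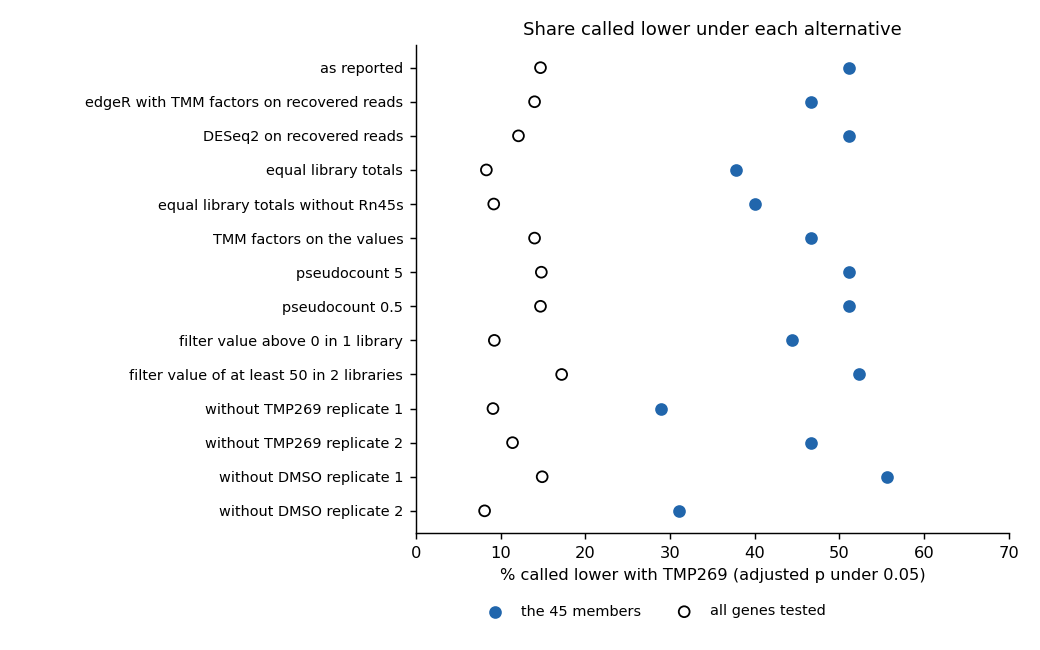
Percentage of the tested members (filled blue) and of all tested genes (open circles) called lower with TMP269 in the reported fit and in 13 alternatives (the fit with replicate numbers as a term is not plotted). All 45 members were tested, except 44 with the filter of at least 50 in 2 libraries. In those plotted, the members' share ran from 28.9% without TMP269 replicate 1 to 55.6% without DMSO replicate 1, and lay above that of all tested genes in each.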

How the data were processed

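RNA of 2 TMP269 and 2 DMSO libraries was analysed, and the chromatin libraries of the series were not analysed here. The deposited table held a normalised signal, reads divided by 1 size factor per library: 100% of values were whole multiples (within 1e-06) of the smallest value above 0 in their library. The factors were 0.967 and 1.05 for TMP269 and 1.11 and 0.829 for DMSO. The submitters' processing notes list DESeq2, HTSeq, TopHat2 2.1.0, Bowtie2 and CASAVA 1.4 and the build mm9, with no role for any of them. Annotation and strand setting are not stated, so overlapping genes and genes with processed pseudogenes are uncertain.

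The 12535 genes that reached 10 in 2 or more libraries were tested in limma 3.58.1 (R 4.3.3), two-sided, with the log2(value + 1) values, a trend of variance on level and no covariates. A call is an adjusted p (Benjamini-Hochberg, over these genes) under 0.05. The smallest two-sided p of an exact test of 2 against 2 libraries is 0.333, so p-values rest on the spread shared across genes. Whether replicates were separate cultures is not stated, and that spread may be technical. Replicates differed by more than sampling noise (chi-square per degree of freedom 9.37 for TMP269 and 17.9 for DMSO). As alternatives, edgeR 4.0.16 (3406 genes called) and DESeq2 1.42.0 were run on the recovered reads, with other scalings, pseudocounts and filters, a replicate block and each library left out, with a lone library then taken to vary as the other group does. The script was tested on simulated data.

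Members and lists were chosen with earlier results of these data known. All members are named, plus, per other list, up to 2 called rises and 2 called falls with the smallest p. Of 105 other pathway genes 103 were in the table; the other 2 were not analysed. Promoter windows are from RefSeq (GRCm38.p6), matched by symbol, and Txndc5, Derl2 and Rpn2 have more than 1.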

Additional observations from a re-analysis of the deposited data

How the results depend on the processing

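No call of a named gene changed direction in any of the 14 alternatives. Members called lower numbered 13 to 25 with each library left out (23 as reported), members called higher 0 to 1, all genes called 2078 to 3675, other pathway genes called 12 to 35, and the members' median log2 fold change ran from -0.35 to -0.22. The lowest values came without TMP269 replicate 1 or DMSO replicate 2. With equal library totals, 2 members were called higher, against 17.1% of all tested genes, and the median was -0.21. Without Rn45s in the totals these were 2, against 17.6%, and -0.22. This follows from the scaling, which moved all genes by 0.10. The replicate numbers are shared between groups, but nothing says that they mark a common culture. Deviations of same-numbered libraries from their group means correlated at r = 0.371 across genes. The value of replicate 2 lay above that of replicate 1 in 38 members with TMP269 (84.4%, against 50.8% of all tested genes) and in 40 with DMSO (88.9%, against 53.4%). With the replicate number as a block, 6360 genes were called, 26.7% of all tested genes lower and 24.0% higher. Of the members, 28 (62.2%) were called lower and 3 higher, and 63 other pathway genes were called (47 lower and 16 higher). The members that the block added were Hspa5 (limma adjusted p = 0.00253), Dnajb11, Dnajc3, Pdia3 and Ssr4, lower, and Dnajb9 and Derl1, higher. Depth limited Derl3 among the members.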
